A study of Mus musculus with 12 samples.

Results

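On chromosome 7, distal of the Fes gene, the RNA levels of 10 protein-coding genes differed between Fes-/- and Fes+/+ macrophages: Fsd2, Ramac, Fah, Alg8, Aamdc, Tsku, Dgat2, Dnajb13, Inppl1 and Trim68. They were chosen by their measured genotype difference, among genes starting 1 to 25 Mb beyond the start of Fes, and taken by name, 10 of 55487 genes in the table, and all 10 were among the 15801 genes with enough counts to be tested. Because genotype differences chose them, those differences are given as a description, and the response to lipopolysaccharide (LPS), which did not choose them, is tested.

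The cells were mouse bone-marrow-derived macrophages, grown out of marrow in macrophage colony-stimulating factor (M-CSF). The 4 groups were Fes-/- macrophages given 1 µg/mL LPS, Fes+/+ macrophages given the same LPS, Fes-/- macrophages given PBS and Fes+/+ macrophages given PBS, each for 4 hours and each with 3 libraries of poly-A-enriched RNA. PBS cells are named untreated in the treatment protocol, the series design gives 3 mice per genotype, and all 12 libraries carry 1 batch date. LPS is a bacterial wall component sensed through TLR4, and FES is a tyrosine kinase of the cytoplasm, most studied in myeloid cells. The title of the series concerns how macrophages lacking Fes prime CD8+ T cells. How the Fes allele was made, and the strain, sex and age of the mice, are not given in the sources used here. Whether same-numbered PBS and LPS libraries came from 1 mouse is not stated either, so p-values measure the spread between these libraries. Each genotype had more libraries than mice, yet all libraries were fitted as independent. In the genotype comparison averaged over treatments a mouse may thus be counted more than once, and the p-values there may be too small.

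The 10 genes have no common pathway. ALG8 adds a late glucose to the lipid-linked sugar that is later moved to asparagines of new proteins in the endoplasmic reticulum, and DGAT2 carries out the last step of triglyceride synthesis beside lipid droplets, which activated macrophages accumulate. INPPL1, also called SHIP2, removes a phosphate from the lipid that PI3-kinase makes, and its relative INPP5D (SHIP1) is the better known form in blood cells. What the genes share is position: DNA next to an altered gene is inherited with it, so on 1 arm of a chromosome the effect of the Fes allele and that of linked DNA cannot be told apart in a comparison of Fes-/- with Fes+/+ mice.

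The libraries held 61016254 to 101027166 counts. Fes itself, on the minus strand at chr7:80377756-80387946 (GRCm38), was at 35.1, 33.5 and 32.9 CPM in the Fes-/- LPS libraries, against 152, 163 and 171 CPM in the Fes+/+ LPS libraries. CPM are counts scaled to a common library size with TMM factors. Under PBS it was at 68.9, 66.4 and 70.5 CPM in the Fes-/- libraries, against 169, 189 and 179 CPM in the Fes+/+ libraries. The targeted gene was therefore at 20.9% of the Fes+/+ level under LPS and at 38.3% under PBS, with no overlap of the groups and with transcript still counted in every Fes-/- library. All 10 macrophage markers were detected, with summed levels of 17900 to 22000 TPM in Fes-/- LPS, 19200 to 23300 in Fes+/+ LPS, 29400 to 37900 in Fes-/- PBS and 32800 to 39800 in Fes+/+ PBS libraries. TPM are levels per gene length, scaled to 1 sum per library. Markers of 8 other cell types stayed far lower, from summed levels of 0 to 0.153 TPM for erythroid to 6.63 to 114 TPM for B cell markers, and none of the markers tested was called between genotypes. In bulk RNA, fewer cells of a type and less RNA per cell cannot be told apart. Sex could be read from RNA only: Xist was at 184 to 380 TPM over the 12 libraries, and the Y-linked Ddx3y and Eif2s3y were at 0 in every library of both genotypes.

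Promoter windows were matched in the RefSeq table (GRCm38.p6, 250 bases before to 50 after an annotated start) for 9 of the 10 genes, all but Dgat2. Of these, 4 are printed 5′ to 3′ on the strand of the gene, chosen because the results turn on them: Alg8 and Fah, which were called by genotype both with and without LPS, Tsku, whose LPS response went opposite ways in the 2 genotypes, and Trim68, which fell most under LPS. Capitals mark the letters GGGCGG (the SP1 box) or CCAAT on either strand. The windows are chr7:97371367-97371666 (plus strand), chr7:84605893-84606192 (minus), chr7:98361279-98361578 (minus) and chr7:102687278-102687577 (minus). The Fah window lies wholly inside the gene body given below for Fah (chr7:84585159-84606722), downstream of its 5′ end there. The Alg8, Tsku and Trim68 windows span the 5′ end of their gene bodies. Whether the Fah window is the promoter used in these cells was not tested.
Alg8: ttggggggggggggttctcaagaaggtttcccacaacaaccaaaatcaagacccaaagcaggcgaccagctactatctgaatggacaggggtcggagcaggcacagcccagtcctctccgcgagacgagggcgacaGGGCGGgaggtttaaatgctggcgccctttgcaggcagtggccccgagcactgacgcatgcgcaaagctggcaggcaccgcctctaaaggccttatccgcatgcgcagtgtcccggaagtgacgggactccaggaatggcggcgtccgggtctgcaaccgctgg
Fah: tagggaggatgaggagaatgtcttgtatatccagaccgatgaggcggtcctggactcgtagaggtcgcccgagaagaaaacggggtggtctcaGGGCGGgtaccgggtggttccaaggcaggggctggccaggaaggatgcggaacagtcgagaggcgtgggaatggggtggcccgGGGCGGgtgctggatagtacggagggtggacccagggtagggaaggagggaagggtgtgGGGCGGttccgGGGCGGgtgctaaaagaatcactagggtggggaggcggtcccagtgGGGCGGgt
Tsku: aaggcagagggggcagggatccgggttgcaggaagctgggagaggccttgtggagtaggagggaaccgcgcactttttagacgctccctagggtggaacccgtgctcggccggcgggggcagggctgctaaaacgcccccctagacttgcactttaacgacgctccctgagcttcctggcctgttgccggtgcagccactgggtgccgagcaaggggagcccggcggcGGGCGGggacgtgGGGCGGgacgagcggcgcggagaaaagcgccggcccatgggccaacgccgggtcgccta
Trim68: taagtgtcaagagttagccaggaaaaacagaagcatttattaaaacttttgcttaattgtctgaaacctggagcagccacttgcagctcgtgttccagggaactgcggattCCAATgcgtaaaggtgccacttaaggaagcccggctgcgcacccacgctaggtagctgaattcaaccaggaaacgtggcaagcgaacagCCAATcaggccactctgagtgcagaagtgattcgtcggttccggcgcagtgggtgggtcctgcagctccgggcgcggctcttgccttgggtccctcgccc
Searched on both strands, GGGCGG stood in the windows of 5 genes (Aamdc, Alg8, Fah, Inppl1 and Tsku), and in 35.7% of the 32851 promoter windows in the table. CCAAT stood in 4 (Aamdc, Dnajb13, Inppl1 and Trim68), against 37.4% of all windows, and the TATA box TATAAA only in Ramac, against 13.6%. None of the 9 genes' windows held the letters TGANTCA (AP-1; 7.81% of all windows), CACGTG (E-box; 7.15%), TGACGTCA (CRE; 1.79%) or GAGGAAG (PU.1; 13.6%), nor the kappaB motif (0.411%) or the ISRE (3.44%). CCAAT and GGGCGG did not overlap each other in any window. The windows held 46% to 69% G and C, against a median of 52.7% over all windows.

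Called here means an adjusted p under 0.05 by the edgeR quasi-likelihood test over the 15801 genes. Under LPS 5 of the 10 genes were called between genotypes, where 0.108% of all tested genes were. Of these Fah, Inppl1, Trim68 and Tsku were higher in Fes-/- (0.0696% of all tested genes) and Alg8 was lower (0.0380%). Under PBS 4 were called, where 0.0823% of all tested genes were, with Dgat2 and Fah higher in Fes-/- (0.0506%) and Alg8 and Fsd2 lower (0.0316%). Averaged over both treatments 9 were called, all but Fsd2, where 0.165% of all tested genes were, with 5 higher (0.0886%) and 4 lower (0.0759%). Not all of these calls held under other settings. Fah was called in 15 of 21 alternatives under LPS (adjusted p up to 0.229) and in 12 of 21 under PBS (adjusted p up to 0.494, with the 6 PBS libraries alone), and Inppl1 and Trim68 in 16 of 21 each under LPS. Alg8 was called in all 21 in both treatments, Tsku in all 21 under LPS, and Dgat2 in all 21 and Fsd2 in all 20 under PBS. In the averaged comparison Dnajb13 was called in 10 of 19 (adjusted p up to 0.115), Tsku in 17 of 20, and Aamdc and Ramac in 19 of 20. These counts restate the rule that chose the genes, and nothing is read from them. In CPM, the Fes-/- and Fes+/+ libraries did not overlap for any of the 10 genes under LPS, nor under PBS. The choice of the genes on this difference favours that, and the share over all tested genes was not counted. Fsd2 under LPS (0.0423 against 0.0445 CPM at the nearest libraries) and Tsku under PBS (2.47 against 2.49 CPM) were only just apart. In TPM the Tsku PBS libraries overlapped (Fes-/- up to 3.97, Fes+/+ from 3.78). Only for Tsku did the higher genotype change between the treatments.

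**Figure D1:**
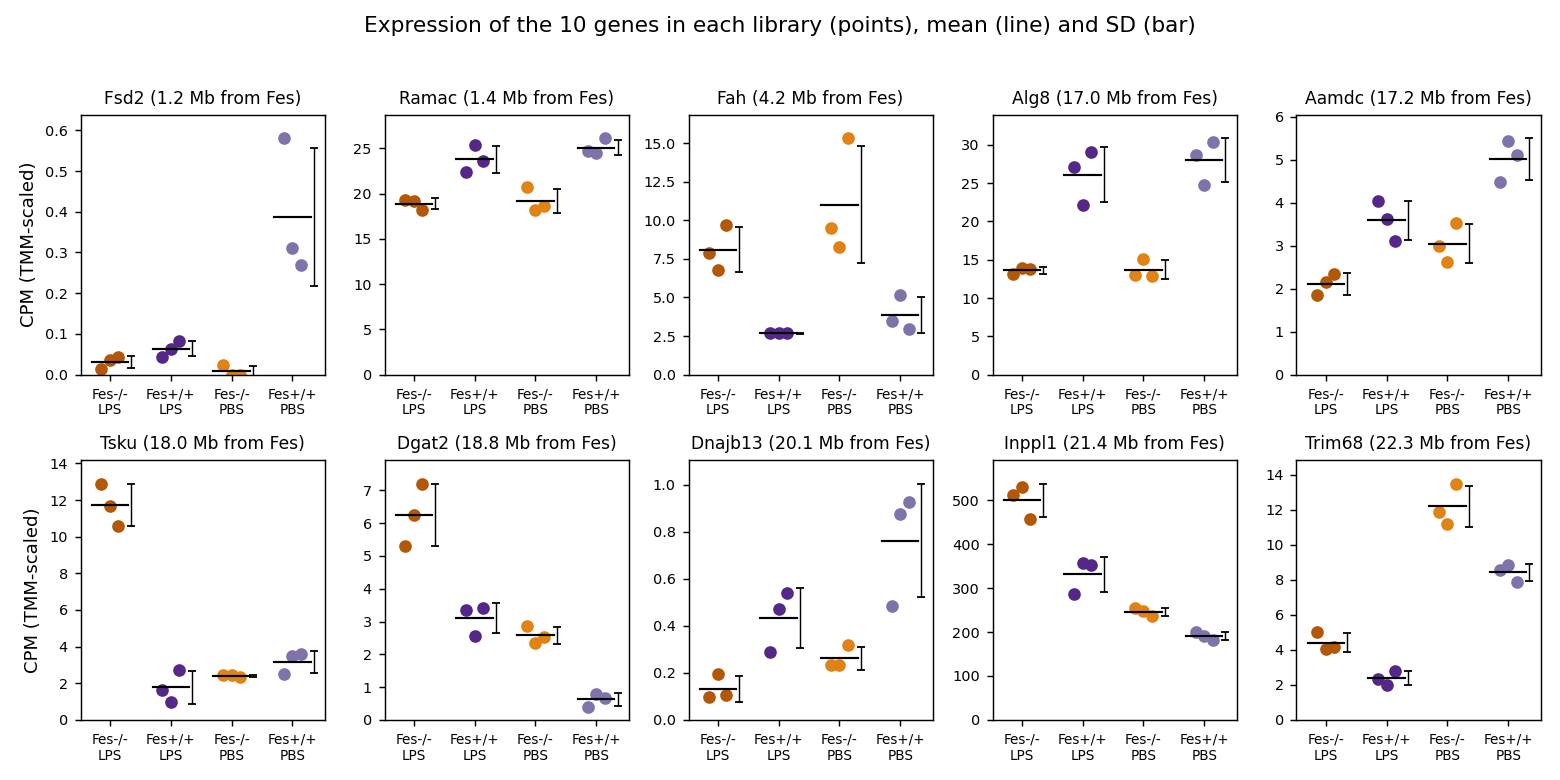
Level of each of the 10 genes in every library, in TMM-scaled CPM on the vertical axis (each panel has its own scale, from 0), for Fes-/- and Fes+/+ macrophages under LPS and then under PBS. Points are libraries, lines are means of 3 libraries and bars are SD. In each treatment the Fes-/- points do not overlap the Fes+/+ points in any panel, though Fsd2 under LPS and Tsku under PBS are only just apart. Tsku reaches 10.6 to 12.9 CPM in Fes-/- LPS libraries alone.

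Alg8 (ENSMUSG00000035704, chr7:97371606-97392185, 17.0 Mb from Fes), the glucosyltransferase, was lower in Fes-/- macrophages, by about the same amount with and without LPS. It had 13.1, 13.9 and 13.8 CPM in the Fes-/- LPS libraries, against 27.1, 22.1 and 29.1 CPM in the Fes+/+ LPS libraries. Under PBS it had 13.0, 15.1 and 12.9 CPM in the Fes-/- libraries, against 28.7, 24.8 and 30.4 CPM in the Fes+/+ libraries. In CPM all 6 Fes-/- libraries lay below all 6 Fes+/+ libraries, at 52.1% of the Fes+/+ mean under LPS and 49.0% under PBS. The log2 differences were -0.94 ± 0.11 under LPS and -1.03 ± 0.11 under PBS (± SE here and below).

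The enzymes that build the same sugar had smaller averaged differences. Of 22 other genes of lipid-linked oligosaccharide assembly, 0 were called between genotypes by edgeR under LPS, PBS or the average. Of all tested genes 0.108%, 0.0823% and 0.165% were called in that order. A count of 0 is thus near the share of all genes, here and in the lists below. An unadjusted p under 0.05 was found for 0 of the 22 genes in any comparison. Of all tested genes 6.52%, 3.83% and 8.77% had one in that order. DESeq2 called 0 of the 22 genes in the averaged comparison. Their averaged log2 differences ran from -0.15 to 0.06. The 17 genes of the oligosaccharyltransferase that transfers the sugar, and of the first glucose trimming, likewise gave 0 calls, with 1 unadjusted p under 0.05 and averaged log2 differences of -0.10 to 0.18.

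Fah (ENSMUSG00000030630, chr7:84585159-84606722, 4.2 Mb from Fes) encodes fumarylacetoacetate hydrolase, the last enzyme of tyrosine breakdown. It was higher without Fes, at 7.85, 6.76 and 9.68 CPM in the Fes-/- LPS libraries, against 2.67, 2.67 and 2.72 CPM in the Fes+/+ LPS libraries. Under PBS it was at 9.51, 8.25 and 15.3 CPM in the Fes-/- libraries, against 3.47, 5.14 and 2.94 CPM in the Fes+/+ libraries. The 3 Fes+/+ LPS libraries were almost equal, while the third Fes-/- PBS library stood well above its 2 companions. The log2 differences were 1.59 ± 0.26 under LPS and 1.52 ± 0.24 under PBS, or 3.01-fold and 2.87-fold. Of 7 other genes of phenylalanine and tyrosine breakdown only Gstz1 and Qdpr had enough counts to be tested, and neither was called between genotypes (averaged log2 differences -0.12 ± 0.09 and -0.06 ± 0.08).

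Dgat2 (ENSMUSG00000030747, chr7:99153658-99182719, 18.8 Mb from Fes), the triglyceride synthesis enzyme, was higher in Fes-/- macrophages and by more under PBS. It had 5.31, 6.25 and 7.21 CPM in the Fes-/- LPS libraries, against 3.34, 2.57 and 3.40 CPM in the Fes+/+ LPS libraries. In the PBS libraries it had 2.85, 2.35 and 2.52 CPM in Fes-/-, against 0.397, 0.783 and 0.680 CPM in Fes+/+ macrophages. In CPM the Fes-/- PBS libraries overlapped the Fes+/+ LPS libraries, while in TPM they lay above them (3.75 to 4.55 against 2.00 to 2.69 TPM). The log2 differences were 1.01 ± 0.21 under LPS and 2.06 ± 0.23 under PBS, or 2.01-fold and 4.17-fold. Of 21 other genes of triglyceride synthesis and droplet formation 18 were tested, and 0 were called between genotypes by edgeR in any comparison (1 unadjusted p under 0.05 in the averaged one, 0 calls by DESeq2).

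Inppl1 (ENSMUSG00000032737, chr7:101822632-101838229, 21.4 Mb from Fes) was the most abundant of the 10. It had 512, 531 and 457 CPM in the Fes-/- LPS libraries, against 286, 358 and 352 CPM in the Fes+/+ LPS libraries. Under PBS it had 254, 247 and 237 CPM in the Fes-/- libraries, against 201, 190 and 183 CPM in the Fes+/+ libraries. The differences were modest in size, 1.51-fold under LPS and 1.28-fold under PBS. The log2 differences were 0.59 ± 0.09 under LPS and 0.36 ± 0.09 under PBS. An antisense gene model, Gm10602, shares 1204 exon bases with Inppl1, and whether counting used strand is not stated; it held 2278 counts in all 12 libraries and had an averaged log2 difference of -0.17 ± 0.13.

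The relatives of Inppl1 gave no edgeR call. Among 18 other phosphoinositide phosphatases 0 were called between genotypes by edgeR, with 5 unadjusted p under 0.05 in the averaged comparison, where DESeq2 called Inpp4b. Inpp5d, the SHIP1 gene, had an averaged log2 difference of -0.12 ± 0.05 (adjusted p = 0.547). Among 14 class I PI3-kinase subunits and AKT kinases, which make and read the lipid that INPPL1 removes, 0 were called and 2 had an unadjusted p under 0.05 in the averaged comparison.

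Tsku (ENSMUSG00000049580, chr7:98350668-98361328, 18.0 Mb from Fes) encodes tsukushi, a secreted small leucine-rich proteoglycan. Its high level was found in 1 group of the 4. It had 12.9, 11.7 and 10.6 CPM in the Fes-/- LPS libraries, against 1.62, 0.962 and 2.72 CPM in the Fes+/+ LPS libraries. Under PBS it had 2.47, 2.42 and 2.36 CPM in the Fes-/- libraries, against 2.49, 3.46 and 3.57 CPM in the Fes+/+ libraries. Under LPS the groups lay far apart, with a log2 difference of 2.73 ± 0.27 (6.62-fold). Under PBS the order was turned round by a small step, 2.47 against 2.49 CPM at the nearest libraries, with a log2 difference of -0.39 ± 0.25 whose 95% interval ran from -0.92 to 0.14. Of 14 other small leucine-rich proteoglycans only Dcn and Bgn were tested, and neither was called between genotypes (averaged log2 differences -0.37 ± 0.34 and 0.36 ± 0.44).

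Trim68 (ENSMUSG00000073968, chr7:102677582-102687327, 22.3 Mb from Fes) encodes a ubiquitin ligase with a RING finger and a B30.2 domain, and was the member farthest from Fes. It had 5.01, 4.04 and 4.16 CPM in the Fes-/- LPS libraries, against 2.31, 2.01 and 2.80 CPM in the Fes+/+ LPS libraries. The PBS libraries had 11.9, 11.2 and 13.5 CPM in Fes-/-, against 8.57, 8.83 and 7.89 CPM in Fes+/+ macrophages. The Fes-/- libraries were higher in both treatments, by 0.89 ± 0.14 on the log2 scale under LPS and 0.53 ± 0.13 under PBS. A gene model inside Trim68 on the same strand, Gm45527, had log2 differences of the same sign (1.51 under LPS and 1.18 under PBS, and 1.35 ± 0.33 averaged, adjusted p = 0.245) on 299 counts in all 12 libraries. Of 27 other TRIM genes with a B30.2 domain 23 were tested and 0 were called between genotypes by edgeR in any comparison. Under PBS 1 had an unadjusted p under 0.05 and was the 1 gene DESeq2 called there: Trim21, which is also the nearest tested gene on the proximal side of Trim68 (112 kb away) and had a log2 difference of -0.56 under PBS, opposite to Trim68, and 0.04 under LPS.

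Ramac (ENSMUSG00000038646, chr7:81762925-81769491, 1.4 Mb from Fes) encodes the activating subunit of RNMT, the enzyme that methylates the cap of mRNAs. It had 19.3, 19.2 and 18.2 CPM in the Fes-/- LPS libraries, against 22.4, 25.4 and 23.6 CPM in the Fes+/+ LPS libraries. Under PBS it had 20.7, 18.2 and 18.6 CPM in the Fes-/- libraries, against 24.7, 24.5 and 26.1 CPM in the Fes+/+ libraries. The difference was the smallest of the 10 on average, at 79.3% of the Fes+/+ mean under LPS and 76.2% under PBS, yet in CPM all 6 Fes-/- libraries lay below all 6 Fes+/+ libraries. Ramac has near-identical copies elsewhere, the closest in the Olfr482 (98.7% identity over 1385 bp) and Gm10767 (96.2% over 1359 bp) transcripts, so how its reads were assigned is uncertain. Gm10767 held 170 counts in Fes-/- PBS and 223 in Fes+/+ PBS libraries, against 5153 and 7024 for Ramac. Of 10 genes of cap formation and cap binding 0 were called between genotypes by edgeR or DESeq2, and 0 had an unadjusted p under 0.05 in any comparison.

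Aamdc (ENSMUSG00000035642, chr7:97550331-97579497, 17.2 Mb from Fes), a small Mth938-domain gene studied in mouse adipocyte formation, was lower in Fes-/- macrophages. It had 1.84, 2.15 and 2.35 CPM in the Fes-/- LPS libraries, against 4.03, 3.61 and 3.11 CPM in the Fes+/+ LPS libraries. Under PBS it had 2.99, 2.62 and 3.52 CPM in the Fes-/- libraries, against 4.48, 5.43 and 5.11 CPM in the Fes+/+ libraries. The share of the Fes+/+ mean was 59.0% under LPS and 60.8% under PBS, and the groups did not overlap within a treatment. The log2 differences were -0.77 ± 0.17 and -0.72 ± 0.16 in the same order.

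Fsd2 and Dnajb13 were near the bottom of detection. Fsd2 (ENSMUSG00000038663, chr7:81533308-81566944, 1.2 Mb from Fes) encodes a muscle protein with fibronectin and SPRY domains that binds ryanodine receptors. Under PBS it held 2, 0 and 0 counts in the Fes-/- libraries, against 60, 27 and 24 counts in the Fes+/+ libraries. That is 2 against 111 counts in all, a ratio of 0.0187 after scaling, with an exact 95% interval of 0.00223 to 0.069 that covers counting error only. Under LPS it held 1, 2 and 2 counts in the Fes-/- libraries, against 2, 3 and 4 counts in the Fes+/+ libraries. At 5 against 9 counts the ratio of 0.438 had an interval of 0.115 to 1.46, so no difference was detectable at this depth. Fsd2 was therefore a transcript counted in 1 group, Fes+/+ PBS macrophages, and hardly in the other 3, and it passed the filter on low counts through that group alone, so that it had to differ. Of 6 relatives of Fsd2 and ryanodine receptors only Fsd1l and Ryr1 were tested, with averaged log2 differences of 0.12 ± 0.09 and 0.43 ± 0.26 and no call.

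Dnajb13 (ENSMUSG00000030708, chr7:100501716-100514960, 20.1 Mb from Fes) encodes a J-domain protein of the radial spokes of sperm tails and cilia. It was at 0.0953, 0.194 and 0.106 CPM in the Fes-/- LPS libraries, against 0.289, 0.470 and 0.539 CPM in the Fes+/+ LPS libraries. Under PBS it was at 0.232, 0.234 and 0.316 CPM in the Fes-/- libraries, against 0.484, 0.876 and 0.926 CPM in the Fes+/+ libraries. The Fes-/- libraries were lower in both treatments, on 23 against 61 counts under LPS and 70 against 209 counts under PBS. The ratio under LPS was 0.297, with an exact 95% interval of 0.176 to 0.487 that covers counting error only, and across libraries Dnajb13 was not called under LPS (adjusted p = 0.471 by edgeR) or under PBS (0.303). Its exons share 305 bases with Ucp2 on the opposite strand, which held 623667 counts in the 12 libraries, so with strand not stated the counts of Dnajb13 are uncertain. The averaged log2 difference was 0.15 ± 0.07 for Ucp2 as a whole (adjusted p = 0.568 by edgeR) and -1.63 ± 0.28 for Dnajb13. Whether reads of the shared bases entered the counts of Dnajb13 was not tested. Of 12 other DNAJB genes 10 were tested and 0 were called between genotypes by edgeR (1 unadjusted p under 0.05 and 0 DESeq2 calls in the averaged comparison).

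Over the 11 lists of pathway relatives, 138 of 168 listed genes were tested and 0 were called between genotypes by edgeR in any of the 3 comparisons. The counts with an unadjusted p under 0.05 were 7 under LPS, 1 under PBS and 11 averaged. Of all tested genes 6.52%, 3.83% and 8.77% had one in that order. The list counts were not above these shares, and nothing about the pathways is read from them. DESeq2 called 0, 1 and 1 of the list genes in the same order, and 37, 33 and 88 of all tested genes. Markers of other cells also stood apart between genotypes in places. Neutrophil and precursor markers summed to 23.2 to 30.3 TPM in Fes-/- PBS against 32.9 to 45.0 TPM in Fes+/+ PBS libraries, carried by S100a8 and S100a9, with Ly6g at 0 in 3 of the 4 groups. Dendritic cell markers summed to 3.18 to 3.82 TPM in Fes-/- LPS against 1.88 to 2.83 TPM in Fes+/+ LPS libraries. That step was carried by Ccr7 (means 2.3 against 1.42 TPM) and Clec9a (0.652 against 0.378 TPM). Flt3 and Siglech were also higher in mean, while Zbtb46 (0.0786 against 0.0932 TPM) and Xcr1 (0.267 against 0.27 TPM) were not. The part of such cells in the genotype differences was not tested.

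Levels of different genes were compared per gene length, in TPM. In Fes-/- LPS macrophages the order was Inppl1 (191 TPM, range 177 to 202), Ramac (26.4), Alg8 (11.9), Tsku (9.37), Fah (8.96), Dgat2 (4.96), Trim68 (3.09), Aamdc (1.35), Dnajb13 (0.118) and Fsd2 (0.0187). Only Tsku and Fah overlapped there. In Fes+/+ LPS macrophages Inppl1 was at 125, Ramac at 33.0, Alg8 at 22.7, Fah at 2.94, Dgat2 at 2.43, Aamdc at 2.26, Trim68 at 1.65 and Tsku at 1.40 TPM, with overlap of Dgat2 with Aamdc, and of Tsku (0.756 to 2.16 TPM) with Trim68, Aamdc and Dgat2. Tsku thus had rank 4 among the 10 in Fes-/- LPS macrophages, not separate from rank 5, and rank 8 in Fes+/+ LPS macrophages, not separate from ranks 5 to 7.
In Fes-/- PBS macrophages Inppl1 was at 185, Ramac at 52.8, Fah at 23.8, Alg8 at 23.7 and Trim68 at 16.8 TPM, where Fah overlapped Alg8, and Dgat2, Tsku and Aamdc (4.02, 3.80 and 3.80 TPM) overlapped each other. In Fes+/+ PBS macrophages Inppl1 was at 139, Ramac at 66.9, Alg8 at 46.7, Trim68 at 11.2, Fah at 8.10, Aamdc at 6.06, Tsku at 4.82, Dnajb13 at 1.30, Dgat2 at 0.935 and Fsd2 at 0.450 TPM. Neighbours that overlapped there were Trim68 with Fah, Fah with Aamdc, Dnajb13 with Dgat2, and Dgat2 with Fsd2. Dgat2 had rank 6 in Fes-/- PBS macrophages, not separate from ranks 7 and 8, and rank 9 in Fes+/+ PBS macrophages, not separate from ranks 8 and 10.

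The test that the choice of genes left free was LPS against PBS, averaged over the genotypes. By the edgeR quasi-likelihood test 7 of the 10 genes were called, 3 higher under LPS (37.7% of all tested genes) and 4 lower (42.9% of all), where 80.6% of all tested genes were called in either direction. The share of members that responded was thus near that of all genes. Their median log2 change was -0.24, against -0.07 over all tested genes. The direction of a change depends on the scaling, since LPS and PBS libraries differed in make-up: TMM factors were 0.707 to 0.737 under LPS and 1.35 to 1.40 under PBS. By library total alone, the median of all tested genes moved to -0.99, and 2744 genes were called higher and 11502 lower (19.3% higher), in place of 5955 higher and 6776 lower (46.8% higher). Changes below are on the TMM scale, whose median gene changed by -0.07, and the other scale is named where it turns a direction. B cell markers were lower under LPS too, at summed levels of 6.63 to 15.2 TPM against 44.4 to 114 TPM under PBS. Lists of 3 other cell types were higher under LPS without overlap. Adipocyte markers summed to 9.91 to 14.4 TPM under LPS against 1.85 to 5.00 TPM under PBS, carried by Fabp4, with Adipoq listed at 0.00 in both LPS groups. Fibroblast and stroma markers summed to 3.20 to 6.57 TPM against 0.310 to 1.28 TPM, carried by Pdgfrb, and dendritic cell markers to 1.88 to 3.82 TPM against 0.958 to 1.61 TPM, in the same order. The dendritic cell sum was carried by Ccr7. Xcr1 and Clec9a were also higher in mean under LPS, while Flt3, Zbtb46 and Siglech were lower in both genotypes. The part of these cells in the LPS changes was not tested.

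Dgat2 rose most, by 1.80 ± 0.15 (adjusted p = 3.24e-08), or 3.49-fold, and it also rose by library total (0.88). All LPS libraries of a genotype lay above its PBS libraries in CPM. In TPM this held in Fes+/+ macrophages, with a ratio of means of 2.6. The Fes-/- libraries overlapped in TPM (4.17 to 5.79 under LPS and 3.75 to 4.55 under PBS), with a ratio of 1.24. Within genotypes, as a description, it changed by 1.28 ± 0.20 in Fes-/- and by 2.33 ± 0.23 in Fes+/+ macrophages. Inppl1 rose by 0.91 ± 0.07 (adjusted p = 4.28e-09), but by library total it was level with PBS and turned slightly negative (-0.02, adjusted p = 0.787), which is still above the median gene on that scale.

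Trim68 fell by 1.65 ± 0.10 on the log2 scale (adjusted p = 4.07e-10), to 0.319 of the PBS level, and by more on library total (-2.57). The fall was seen in both genotypes, at -1.47 ± 0.13 in Fes-/- and -1.83 ± 0.14 in Fes+/+ macrophages. Of 23 other TRIM genes with a B30.2 domain 13 rose (12 by library total) and 7 fell (9 by library total), with a list median of 1.91. Of all tested genes 37.7% rose and 42.9% fell, with a median of -0.07. Among the TRIM genes that rose were Trim26 (2.90 ± 0.05), Trim21 (4.05 ± 0.09) and Trim30c (6.38 ± 0.16). Trim68, Trim21 and Trim30c all lie on chromosome 7.

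Aamdc fell by 0.51 ± 0.11 on the log2 scale (adjusted p = 0.000858) and Dnajb13 by 0.89 ± 0.28 (adjusted p = 0.00797). Fah fell by 0.48 ± 0.17 (adjusted p = 0.0198), a call that ended without Fes-/- PBS replicate 3 (-0.32, adjusted p = 0.0568) or without Fes+/+ PBS replicate 2 (-0.33, adjusted p = 0.0626). These 3 also fell by library total (-1.43, -1.81 and -1.40). Alg8 (-0.06 ± 0.08, adjusted p = 0.518) and Ramac (-0.05 ± 0.06, adjusted p = 0.431) did not pass the test, with 95% intervals of -0.22 to 0.11 and -0.17 to 0.07. By library total both were called lower (-0.98 and -0.97), which is the level of the median gene on that scale (-0.99). Fsd2 did not pass the test (-0.42 ± 0.97, adjusted p = 0.698), and its estimate rests on the few counts given above: without Fes-/- PBS replicate 1 it was 0.78.

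Tsku was called higher under LPS on average (0.72 ± 0.18, adjusted p = 0.002), yet this mean describes neither genotype, and by library total it turned to -0.20 (adjusted p = 0.306). As a description, it changed by 2.28 ± 0.25 in Fes-/- macrophages and by -0.84 ± 0.26 in Fes+/+ macrophages. In TPM it had 10.2, 9.29 and 8.59 under LPS, against 3.97, 3.88 and 3.56 under PBS, in the Fes-/- libraries. In the Fes+/+ libraries it had 1.29, 0.756 and 2.16 TPM under LPS, against 3.78, 5.28 and 5.41 TPM under PBS. On this scale the LPS libraries lay above the PBS libraries without overlap in Fes-/- macrophages and below them without overlap in Fes+/+ macrophages. On the CPM scale the Fes+/+ LPS and PBS libraries overlapped.

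**Figure D2:**
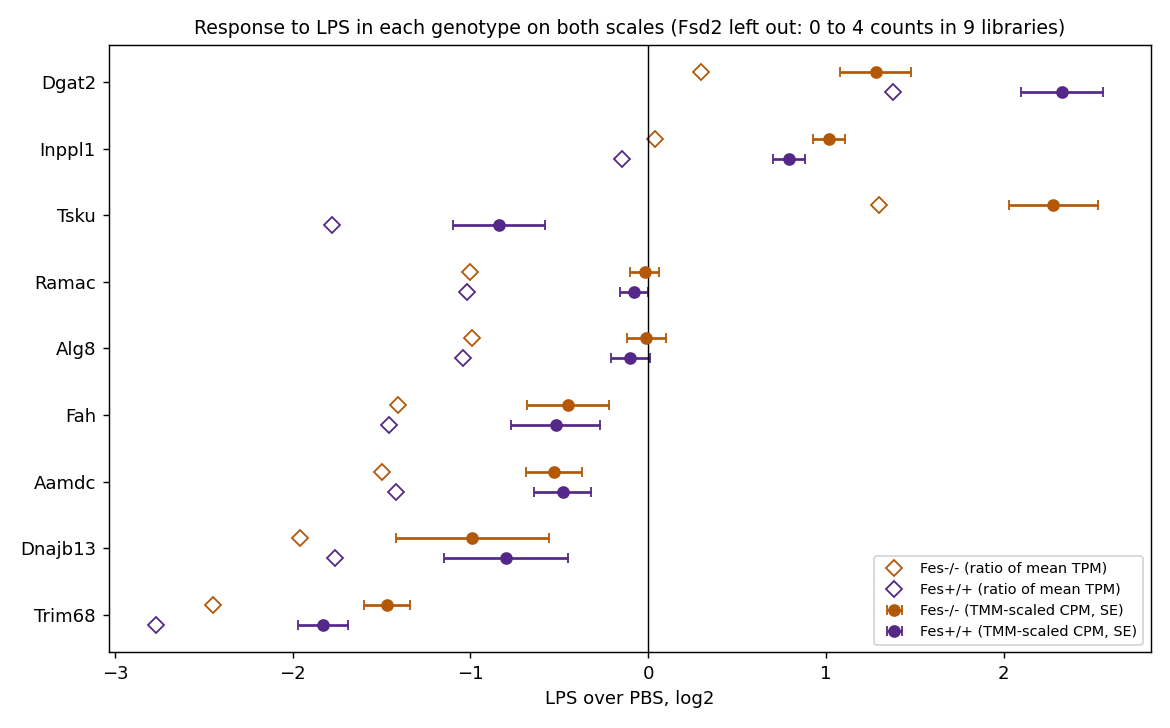
Change under LPS against PBS (log2, horizontal axis) of 9 of the 10 genes in Fes-/- and Fes+/+ macrophages. Filled circles with bars are TMM-scaled estimates with their SE and open diamonds are ratios of mean TPM; Tsku stands to the right of 0 in Fes-/- (2.28) and to the left in Fes+/+ macrophages (-0.84) on both scales, and Dgat2 is the other gene with well separated estimates (1.28 and 2.33).

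Pathway relatives were read in the same LPS comparison as the members, on the TMM scale first. Over all lists 62 rose and 49 fell of 138 tested genes, where 37.7% of all tested genes rose and 42.9% fell. An unadjusted p under 0.05 was found for 115 of the 138, and for 12846 of all 15801 tested genes. By library total 27 rose and 101 fell, where 2744 of all tested genes rose and 11502 fell. A change was thus the rule among all genes, and the list counts below are a description. Of 22 genes of lipid-linked oligosaccharide assembly 4 rose and 13 fell, with a median of -0.28 (by library total 0 rose and 21 fell). The dolichol phosphatase gene Dolpp1 (-2.10 ± 0.08) and Alg2 (-1.46 ± 0.10) fell on both scales, and Nus1 rose (0.92 ± 0.05) but was at 0.00 by library total.
Of 17 oligosaccharyltransferase and glucose-trimming genes 13 rose and 1 fell, by small amounts (Stt3a 0.45 ± 0.05, Magt1 0.40 ± 0.05, Rpn2 0.38 ± 0.05), and by library total all 17 fell (Stt3a -0.47, Magt1 -0.53, Rpn2 -0.54). Of 18 triglyceride and droplet genes 9 rose and 6 fell, or 3 and 14 by library total. Acsl1, which activates fatty acids, rose on both scales as Dgat2 did (3.09 ± 0.07 and 2.16), while Acsl3 (-2.66 ± 0.08) and the lipin gene Lpin1 (-5.88 ± 0.18) fell on both.
Of 18 phosphoinositide phosphatases 6 rose and 8 fell, or 4 and 14 by library total. Inpp5b rose (2.41 ± 0.06) and Inpp5d (-2.26 ± 0.05) and Synj2 (-2.03 ± 0.07) fell on both scales, so Inpp5d fell where its relative Inppl1 rose on the TMM scale and did not pass by library total. Of 14 PI3-kinase and AKT genes 8 rose and 4 fell, or 4 and 8 by library total, and Pik3r5 (3.41 ± 0.07) and Pik3ap1 (2.53 ± 0.07) rose on both scales.
Of 10 cap genes 3 rose and 4 fell, or 1 and 7 by library total: Cmtr1 rose on both scales (1.78 ± 0.07 and 0.86), Rngtt on the TMM scale alone (0.88 ± 0.05, and -0.04 by library total), and Phax fell on both (-0.70 ± 0.07). Of 10 DNAJB genes 3 rose and 5 fell, or 2 and 7 by library total, with Dnajb6 (1.80 ± 0.05) and Dnajb2 (1.39 ± 0.09) higher on both scales and Dnajb11 on the TMM scale alone (0.78 ± 0.08, and -0.14 by library total). In the small lists, Dcn rose on both scales (4.16 ± 0.30) and Bgn did not pass on either. Gstz1 fell on both (-0.67 ± 0.09), and Qdpr (0.22 ± 0.08) and Fsd1l (0.30 ± 0.09) rose on the TMM scale and fell by library total (-0.70 and -0.63). Ryr1 passed the test by library total alone (-1.24).

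The members were set among the other genes of chromosome 7 by distance from Fes. Within 1 to 25 Mb distal, 169 genes were tested and 14 were called in some genotype comparison: the 10 members and the gene models Gm44751, Gm26862, Gm35082 and Gm35363, the last 4 named after their values were seen. The members stood in 2 stretches, 3 at 1.2 to 4.2 Mb and 7 at 17.0 to 22.3 Mb from Fes. Leaving the members out, 54 of the other 159 genes (34.0%) had an unadjusted p under 0.05 in the averaged genotype comparison, 30 higher and 24 lower, against 8.40% of the 14579 genes on other chromosomes. In the 60 genes 1 to 25 Mb proximal of Fes the share was 5.00%, and 0 were called by edgeR, DESeq2 or limma.
By distance, the share with an unadjusted p under 0.05, members included, was 50.0% at 1 to 5 Mb (28 genes), 44.4% at 5 to 10 Mb (18 genes), 37.5% at 10 to 15 Mb (16 genes), 36.2% at 15 to 20 Mb (47 genes) and 43.2% at 20 to 22.5 Mb (44 genes). Past the last member it was 0 of 16 genes at 22.5 to 25 Mb and 4 of 47 genes (8.51%) at 25 to 30 Mb. The border at 22.5 Mb was set after the values were seen, and these shares are a description. Over all tested genes 27 were called in some genotype comparison, 22 of them on chromosome 7 and 5 elsewhere.

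**Figure D3:**
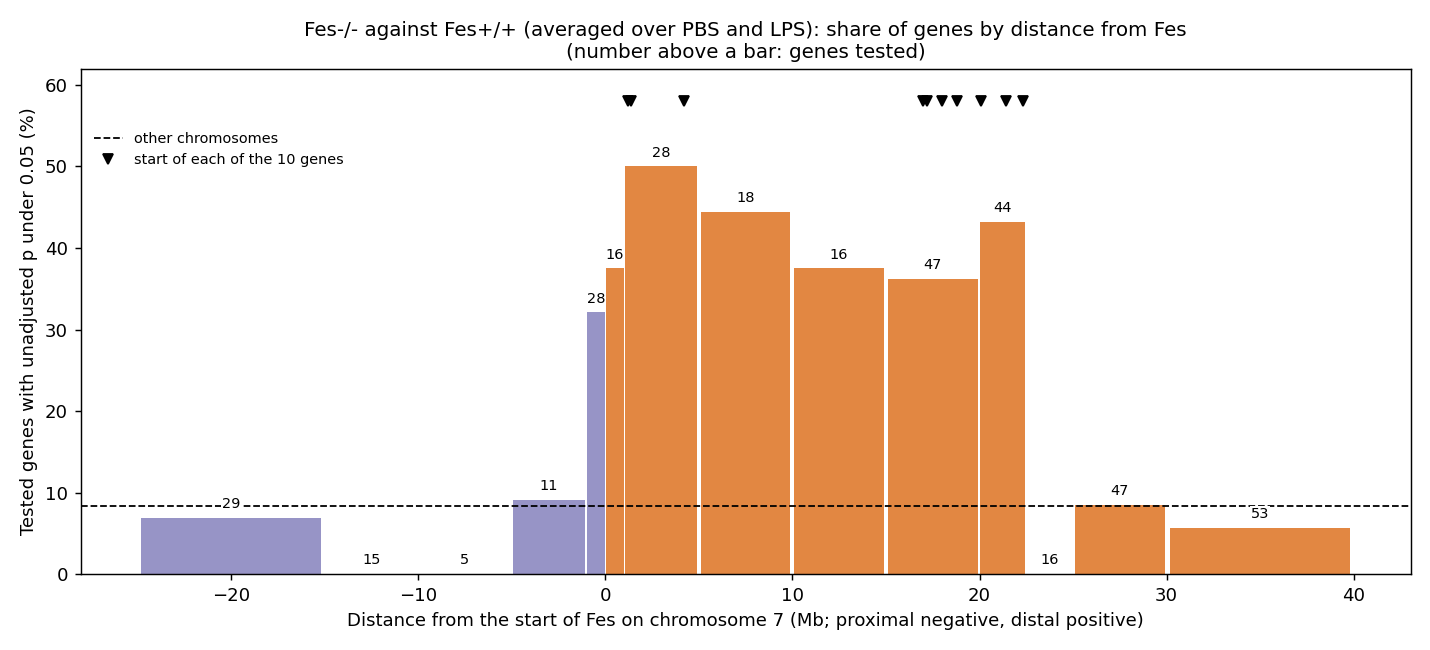
Share of tested genes (%, vertical axis) with an unadjusted p under 0.05 between Fes-/- and Fes+/+ macrophages, averaged over LPS and PBS, by distance from the start of Fes on chromosome 7 (Mb, horizontal axis, proximal negative). Numbers above bars are genes tested, the dashed line is the 8.40% of other chromosomes and triangles are the 10 genes. Bars stand at 36.2% to 50.0% from 1 to 22.5 Mb on the distal side and at 0 to 9.09% beyond 1 Mb on the proximal side.

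The member nearest the 1 Mb border of the rule on position was Fsd2, at 1.16 Mb from Fes (averaged log2 difference -3.27). The nearest called gene short of that border was Blm, at 0.08 Mb (-1.01). Of the 16 genes tested at 0 to 1 Mb distal of Fes, 2 were called in some genotype comparison. On the side of the call, the member with the highest of the lowest adjusted p over the 3 comparisons was Dnajb13 (0.0229), and the nearest genes of the window left out were Pold3 (0.051, averaged log2 difference -0.36), Picalm (0.0567, -0.57) and Prcp (0.0659, 0.30).

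The nearest tested genes on each side of each member were compared in the same fit. Of these 20 neighbours 0 were called between genotypes by edgeR in any comparison. Members were not taken as neighbours, and only 4 of the 159 other tested genes of the window were called (2.52%). The count of 0 was thus nearly fixed by the choice, and nothing is read from it. An unadjusted p under 0.05 was found for 7 neighbours under LPS, 5 under PBS and 10 averaged. DESeq2 called Trim21 under PBS and 2900076A07Rik, Acer3 and Gm45527 in the averaged comparison, and limma on log2(TPM + 1) called Gm30873. The median size of the averaged log2 difference was 1.08 over the members, which were chosen for it, 0.17 over the neighbours and 0.10 over all tested genes.
Several neighbours lay only a few kilobases from a member. Ndufc2, a gene of mitochondrial complex I whose body is 7.82 kb from Alg8, had an averaged log2 difference of -0.17 ± 0.05 beside -0.99 ± 0.08 for Alg8. Zfand6, 7.04 kb from Fah, had -0.12 ± 0.06 beside 1.55 ± 0.18 for Fah. Rsf1, a chromatin remodelling gene 0.392 kb from Aamdc, had 0.17 ± 0.07 beside -0.74 ± 0.11, while Fsd2 (-3.27 ± 0.61) had 2 close neighbours. The noncoding 2900076A07Rik, 1.81 kb from Fsd2, had -0.59 ± 0.14 (adjusted p = 0.231 by edgeR), of the same sign as Fsd2, with -0.89 under LPS and -0.30 under PBS. Whamm, an actin nucleation factor gene 4.32 kb from Fsd2 on the other side, had -0.02 ± 0.05. Uvrag, an autophagy gene 12.5 kb from Dgat2, had -0.08 ± 0.05 beside 1.53 ± 0.15.
Acer3, the ceramidase gene 29.5 kb from Tsku, had 0.22 ± 0.05 (adjusted p = 0.188) in both treatments alike (0.24 under LPS and 0.20 under PBS), unlike Tsku (2.73 under LPS and -0.39 under PBS).

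**Figure D4:**
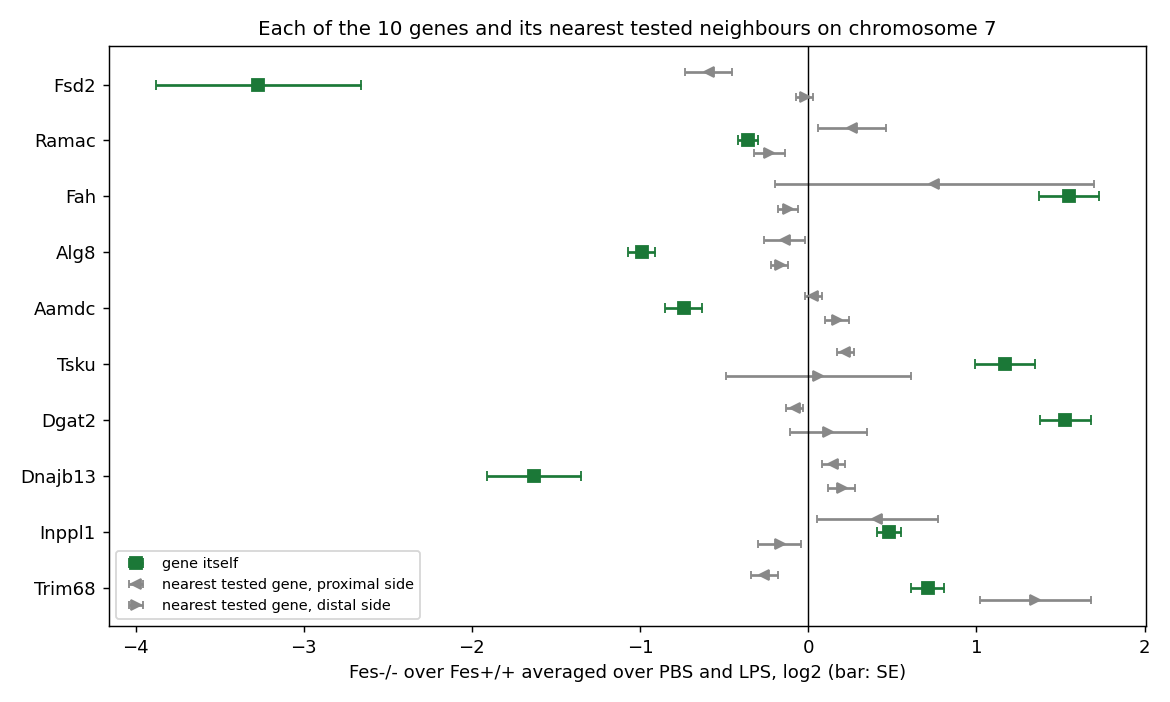
Averaged log2 difference of Fes-/- over Fes+/+ macrophages (horizontal axis, bars are SE) for each of the 10 genes (squares) and its nearest tested gene on the proximal and distal side (triangles), ordered from the member nearest Fes at the top. The members run from -3.27 to 1.55 and the neighbours from -0.59 to 1.35; the neighbour at 1.35 is Gm45527 inside Trim68.

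Across the 12 libraries, the genes with the pattern most like a member were often other genes of chromosome 7. All points share the same libraries and the 4 groups, so these correlations of log2 CPM are a description. The members were chosen for a genotype difference, so likeness to Fes or to other genes that differ by genotype follows in part from that choice. Alg8 was most like Fes (Pearson r = 0.900) and Ramac (0.891), Ramac like Fes (0.894), and Dnajb13 like Man2a2, which lies beside Fes (0.934). Inppl1 was most like Acer3 (0.985), which was not called between genotypes, and Trim68 most like Ngrn (0.979), both on chromosome 7. Fah was most like Amd2 (0.882, chromosome 10) and Hddc3 (0.851), Aamdc like Cd5l (0.950, chromosome 3), Fsd2 like Ramac (0.814), Tsku like Tbc1d15 (0.855, chromosome 10) and Dgat2 like Dbn1 (0.883, chromosome 13). Among the members themselves r ran from -0.91 for Alg8 with Fah to 0.90 for Aamdc with Dnajb13.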

How the data were processed

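Poly-A RNA from 12 macrophage libraries was used as the authors' deposited table of raw counts per gene, unnormalised whole numbers, and their deposited table of TPM, levels per gene length scaled to 1 sum per library. Per the submitters' processing notes the tools were DESeq2 1.34.0, R 4.1.12, Picard 2.9.0 and STAR 2.7.8a, with the builds GRCm38 and mm9, whose roles are not given in the sources used here, nor are the counting program and its strand setting. Exon lengths implied by count over TPM lay within 1% of GENCODE M21 (GRCm38) for 8410 of 8531 genes with at least 200 counts in every library, so positions came from GENCODE M21 by gene ID (55227 of 55487 IDs matched).

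In R 4.3.3, edgeR 4.0.16 was run on the counts: filterByExpr (15801 genes kept), TMM factors, 1 mean per group over all 12 libraries, 8 residual degrees of freedom, robust quasi-likelihood F tests, two-sided, with Benjamini-Hochberg adjustment over all tested genes. Groups came from the labels' genotype and treatment. The alternatives used DESeq2 1.42.0, limma 3.58.1 on log2(TPM + 1) and log2(TPM + 0.1), other scalings and filters, and left-out libraries; library-total counts of the pathway lists were added after seeing the data. Near-identical transcripts were sought with BLAST 2.17.0 (at least 90% identity over 100 bp), figures drawn with matplotlib 3.10.9 in Python 3.11.15, and the test was tested on simulated counts.

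The 10 genes, the gene lists and the tests were chosen with earlier results of these data known. Genes named beside the members were Fes, the nearest tested gene on each side of each member, in each pathway list up to 3 genes with the smallest unadjusted p in the averaged LPS comparison and any called between genotypes, and for each member the 3 named genes with the highest Pearson r over the libraries, of which the first 1 or 2 are given. Other names were chosen after their values were seen.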

Additional observations from a re-analysis of the deposited data

Results flagged for a closer look

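Tsku was picked out because its libraries moved in opposite directions under LPS in the 2 genotypes. The log2 ratio of mean TPM, LPS over PBS, was 1.30 in Fes-/- macrophages and -1.78 in Fes+/+ macrophages, and every LPS library of a genotype lay on that side of every PBS library of it. The difference between the 2 responses was not tested, since Tsku was chosen on the genotype difference under LPS. In TMM-scaled CPM the Fes-/- libraries stayed apart, and the Fes+/+ libraries overlapped (0.962 to 2.72 CPM under LPS and 2.49 to 3.57 CPM under PBS).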

How the results depend on the processing

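Each comparison was recomputed under up to 21 alternatives. Without a filter on low counts the genes called between genotypes numbered 358 under LPS, 315 under PBS and 581 averaged, with 8 members under LPS and 8 under PBS, and DESeq2 called 37, 33 and 88 genes and 8 members under PBS. The members called under LPS were 2 with the replicate number as a block and 3 with the 6 LPS libraries alone. The block gave 12, 12 and 21 genes in the same order. Same-numbered PBS and LPS libraries of a genotype deviated together only weakly (r = 0.07 to 0.19), so the numbers were not taken as pairs. Each library correlated best with its own number within its genotype, for Fes-/- PBS replicate 1 by 0.07 against 0.06. Libraries of different genotypes reached r = 0.22 (Fes-/- PBS replicate 3 with Fes+/+ PBS replicate 2), so this is a weak hint from the data only.

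Leaving out 1 library gave 12 to 19 genes and 2 to 6 members under LPS, with 2 members without Fes-/- LPS replicate 1 or Fes+/+ LPS replicate 1 and 3 without Fes+/+ LPS replicate 2. It gave 12 to 15 genes and 3 to 4 members under PBS, 19 to 36 genes and 6 to 9 members averaged, and 12630 to 12808 genes and 6 to 7 members for LPS against PBS. Under LPS the call of Fah ended without Fes-/- LPS replicate 1 or 3 or any 1 Fes+/+ LPS library, that of Inppl1 without Fes-/- LPS replicate 1 or 2 or Fes+/+ LPS replicate 1, and that of Trim68 without Fes-/- LPS replicate 1 or Fes+/+ LPS replicate 1 or 2. Under PBS that of Fah ended without Fes-/- PBS replicate 1, Fes+/+ PBS replicate 1 or 3, Fes-/- LPS replicate 1 or any 1 Fes+/+ LPS library. Averaged, that of Tsku ended without replicate 1 of Fes-/- LPS, Fes+/+ LPS or Fes-/- PBS, that of Aamdc without Fes-/- LPS replicate 1, and that of Dnajb13 without Fes-/- LPS replicate 1 or 3, Fes+/+ LPS replicate 2 or 3, Fes-/- PBS replicate 1 or 2 or Fes+/+ PBS replicate 2 or 3.

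In LPS against PBS, Tsku reversed to -0.20 by library total, -0.10 on log2(TPM + 1) and -0.26 on log2(TPM + 0.1), and Inppl1 to -0.02, -0.06 and -0.06, where the median of all genes was -0.99, -0.69 and -0.97 on the 3 scales. Ramac came to 0.00 by DESeq2. Left-out libraries gave Ramac -0.08 to 0.00 (0.00 without Fes-/- PBS replicate 1), Alg8 -0.10 to 0.00 (0.00 without Fes-/- PBS replicate 2) and Fsd2 -0.68 to 0.78 (0.78 without Fes-/- PBS replicate 1, which held both of its Fes-/- PBS counts). Dgat2, Trim68, Aamdc and Dnajb13 kept the direction and call of their LPS change in every alternative that could be fitted. No sign of a member's genotype difference changed in any alternative, which the choice of members partly fixes. Counts of 0 to 4 for Fsd2 limit what can be said of it in 9 libraries.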
